A study of Mus musculus with 6 samples.

Results

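The mitochondrial beta-oxidation genes described here are 10 genes of fatty acid breakdown (Cpt1b, Cpt2, Slc25a20, Acadl, Acadm, Acadvl, Hadha, Hadhb, Decr1 and Mlycd), chosen by name, out of 18193 genes that had a probe set with a single gene symbol. All probe sets carrying these symbols were taken, 16 in all, and the brightest probe set by mean log2 signal stood for each gene. For 9 of the 10 genes a probe set with only that symbol was found. The only probe set of Cpt1b is also listed for Chkb and for the readthrough gene Gm44502, so its signal cannot be given to Cpt1b and it stays out of every count. All 9 measured genes passed the filter on low signal, as did 11526 genes in total. Of the 9, 5 had more than 1 probe set. The second ones of Slc25a20, Decr1 and Hadhb are given as a check, and further ones of Acadl, Cpt2 and Hadhb were dim (mean signals of 80.6, 107 and 93.3).

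Gastrocnemius, a mixed but mostly fast calf muscle, was taken from male C57BL/6J mice and measured on 6 expression arrays. Each array held RNA pooled within a group, and the sources used here do not give how many animals went into it. From 6 weeks of age the mice ate for 15 weeks the Control diet (10 kcal% fat, 70 kcal% carbohydrate), the high-fat diet HF (60 kcal% fat, 20 kcal% carbohydrate) or HF+SFC+ALA. The last added, by weight, 0.023% of the iron salt sodium ferrous citrate (SFC) and 0.2% of the heme precursor 5-aminolevulinic acid phosphate (ALA) to HF. All diets held 20 kcal% protein. Mice on every diet were fasted for 4 h or 24 h, giving 1 array for each of the 6 combinations and no replicate of any. The labels give an age of 21 months, which does not follow from the start at 6 weeks and the 15 weeks of diet. The mice carried no transgene or deletion that the labels name.

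Fatty acids enter mitochondria as carnitine esters. Carnitine palmitoyltransferase 1 (Cpt1b in muscle) makes the ester at the outer membrane, the carrier Slc25a20 exchanges it across the inner membrane, and Cpt2 turns it back into acyl-CoA. Malonyl-CoA blocks the first of these steps, and Mlycd, malonyl-CoA decarboxylase, removes malonyl-CoA. In the matrix each turn of the cycle begins with an acyl-CoA dehydrogenase chosen by chain length (Acadvl for very long, Acadl for long and Acadm for medium chains). For long chains the trifunctional protein, made of the subunits encoded by Hadha and Hadhb, carries out the remaining steps. Decr1, a dienoyl-CoA reductase, prepares polyunsaturated fatty acids for the cycle. In muscle this pathway supplies energy during fasting, and nuclear receptors of the PPAR and ERR families are known to drive its genes.

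RefSeq promoter windows (GRCm38.p6, 250 bases before to 50 after a start) were on hand for 8 of the 10 genes. Those of Hadha and Hadhb are shown first because they are largely the same DNA read in opposite directions. The capitals mark the 228 bases that both windows share, chr5:30155003-30155230. They lie between the start of Hadha (30154980) and that of Hadhb (30155253), from which the genes are read away from each other. Of 32851 windows in the table, 10.8% overlap a window of another gene on the other strand. The Hadha window is chr5:30154931-30155230 on the minus strand and the Hadhb window is chr5:30155003-30155302 on the plus strand.
Hadha: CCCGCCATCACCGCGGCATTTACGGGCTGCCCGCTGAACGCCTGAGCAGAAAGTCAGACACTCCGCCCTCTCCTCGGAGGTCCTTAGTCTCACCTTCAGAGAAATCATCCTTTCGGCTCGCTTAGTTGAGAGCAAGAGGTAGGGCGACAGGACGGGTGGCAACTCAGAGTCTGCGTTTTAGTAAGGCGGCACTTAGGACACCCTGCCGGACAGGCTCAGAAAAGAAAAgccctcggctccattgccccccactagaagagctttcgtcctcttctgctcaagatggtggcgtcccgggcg
Hadhb: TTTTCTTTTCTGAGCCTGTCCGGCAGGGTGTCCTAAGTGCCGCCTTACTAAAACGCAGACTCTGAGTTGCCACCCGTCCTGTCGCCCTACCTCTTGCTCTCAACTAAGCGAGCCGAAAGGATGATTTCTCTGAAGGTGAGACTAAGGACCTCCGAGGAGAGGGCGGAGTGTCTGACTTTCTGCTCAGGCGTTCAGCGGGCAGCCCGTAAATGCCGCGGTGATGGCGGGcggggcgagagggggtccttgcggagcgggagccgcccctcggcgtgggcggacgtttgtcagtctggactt

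The windows of Acadm, on the minus strand at chr3:153944594-153944893, and of Mlycd, on the plus strand at chr8:119394644-119394943, are shown because they hold the only matches to the short motifs searched. Capitals mark AAGGTCA, a half-site bound by nuclear receptors, in Acadm and CCAAT in Mlycd, on either strand.
Acadm: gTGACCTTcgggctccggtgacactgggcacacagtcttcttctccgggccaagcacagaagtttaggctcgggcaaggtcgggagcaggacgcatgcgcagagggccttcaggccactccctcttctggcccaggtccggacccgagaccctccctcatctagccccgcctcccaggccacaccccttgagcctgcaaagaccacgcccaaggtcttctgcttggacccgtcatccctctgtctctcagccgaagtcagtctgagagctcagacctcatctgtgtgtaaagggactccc
Mlycd: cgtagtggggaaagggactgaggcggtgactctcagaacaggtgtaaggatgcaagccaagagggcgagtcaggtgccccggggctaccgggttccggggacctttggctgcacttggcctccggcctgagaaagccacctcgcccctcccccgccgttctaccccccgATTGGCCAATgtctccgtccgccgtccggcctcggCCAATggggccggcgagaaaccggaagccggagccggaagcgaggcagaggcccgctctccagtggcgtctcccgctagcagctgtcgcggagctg

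On both strands, AAGGTCA was found in 1 of the 8 windows (4.72% of all 32851) and CCAAT, a box bound by NF-Y, in 1 of the 8, at 3 places there (37.4% of all). The ERR-type site TCAAGGTCA, which contains AAGGTCA, and the PPAR-type DR1 repeat (AGGTCA, any base, AGGTCA) were in 0 of the 8 windows, against 0.423% and 0.0396% of all. These letters describe the windows and say nothing of which factor acts on the genes.

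The arrays had been scaled to a common level, with a median signal of 63.0 to 69.5. As a sign of RNA quality, the 3' over 5' ratio for actin was 1.52 in the HF pool at 4 h and 1.08 to 1.22 in the others. That of GAPDH was 0.814 to 0.863. All 10 skeletal muscle markers were above the signal filter, with a summed signal of 399109 to 464458, whereas 5 liver and heart markers with a probe set summed to 124.6 to 224.8 and only Alb passed the filter. Ucp1, which defines brown adipocytes, was below the filter, as were Elovl3 and Otop1. The other 4 of the 7 genes listed for these cells (Cidea, Dio2, Ppargc1b and Cox7a1) passed it. The p-values below come from limma fitted to all 11526 genes with diet and fasting time as terms, on 6 pools. With 1 pool for each combination, the 2 residual degrees of freedom are the interaction of diet and fasting time. That interaction therefore serves as the error, and no replicate spread enters the SEs or p-values. In bulk muscle, fewer cells of a type and less RNA per cell cannot be told apart. Signals of different probe sets are not compared with each other as levels.

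Across the 6 pools the Control pool at 4 h was lowest for 8 of the 9 genes, all but Mlycd, a position that 16.4% of all genes took. The HF pool at 24 h was highest for 5 (Cpt2, Acadl, Acadvl, Hadha and Decr1), a position that 18.3% of all genes took. The ratio of the highest to the lowest pool was small, between 1.25 for Slc25a20 and 1.86 for Mlycd. Over the 36 pairs of genes, Pearson's r across the 6 pools had a median of 0.76 and ran from -0.32 (Hadhb with Mlycd) to 0.99 (Cpt2 with Hadha). The points share their libraries, so these values describe the arrays only. The dehydrogenases, Cpt2, Hadha and Decr1 ran most alike, with median correlations to the others of 0.87 to 0.95, against 0.72 for Slc25a20, 0.55 for Hadhb and 0.35 for Mlycd.

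**Figure D1:**
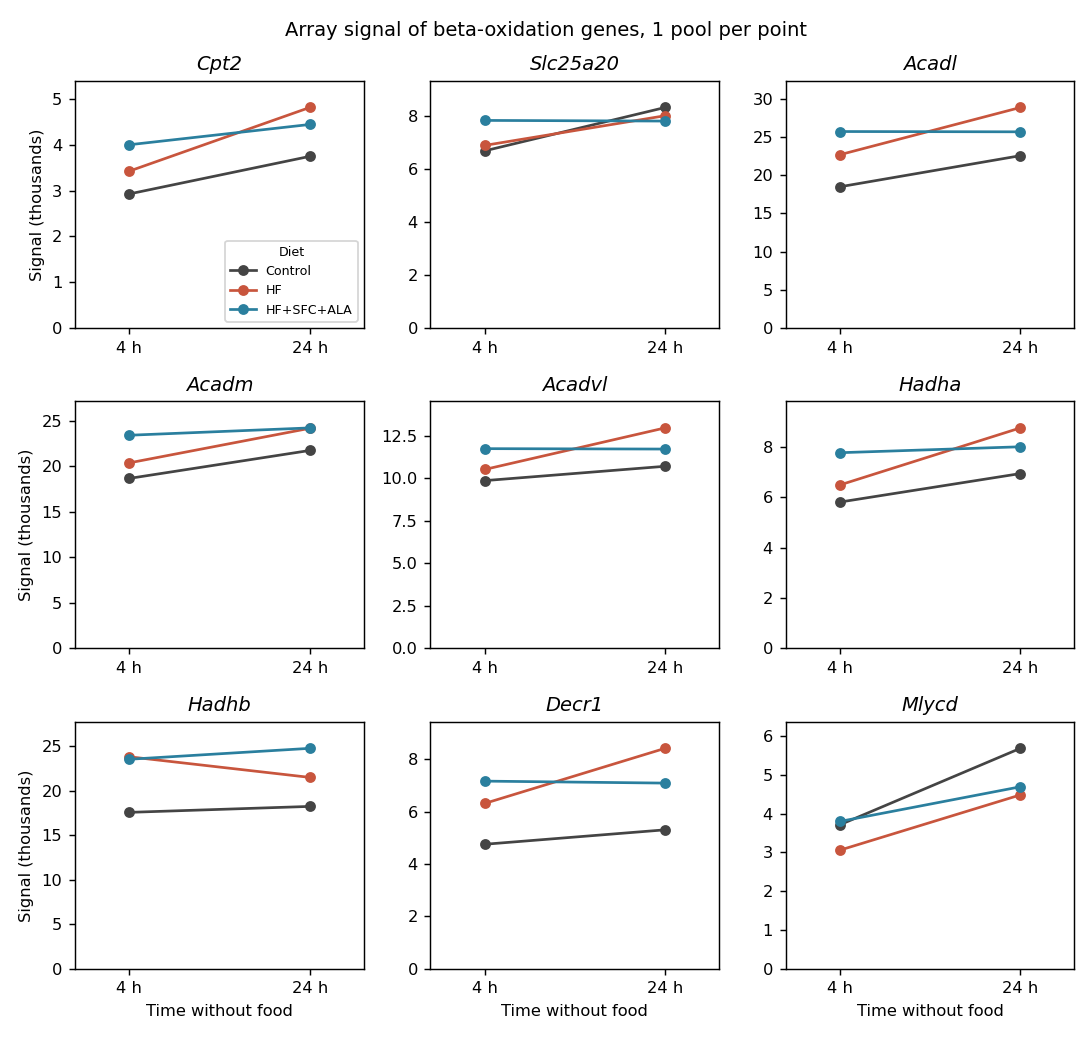
Array signal (linear axis from 0) of the 9 measured genes after 4 h and 24 h without food, with 1 pool per point, lines joining the pools of a diet and colours for the diets. For Cpt2, Acadl, Acadvl, Hadha and Decr1 the HF+SFC+ALA line (blue) lies above the HF line (red) at 4 h and below it at 24 h, and the Control pool at 4 h is lowest in all panels but that of Mlycd.

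The first question was what 24 h without food did against 4 h. Mlycd rose, was higher in each of the 3 diets and was the only one of the 9 genes to pass the test. Its signal at 4 h was 3711 for Control, 3057 for HF and 3798 for HF+SFC+ALA, and at 24 h it was 5681, 4481 and 4691 in the same order. Every 24 h pool lay above every 4 h pool, which held for 1 of the 9 genes and for 10.6% of all genes. The fitted log2 difference was 0.49 ± 0.08 (SE, 1.40-fold, adjusted p = 0.0166 by limma with Benjamini-Hochberg adjustment, over 3 pools a side). In that test 2.41% of all genes passed (1.49% as higher), so 1 of 9 is a small count to read. An unadjusted p under 0.05 was reached by 6 of the 9, all as higher, against 17.7% of all genes (9.83% as higher). With each pool left out in turn the difference ran from 0.43 to 0.58. Leaving out either pool of a diet gives the same fasting difference, so those fits are not 6 separate checks. The call did not hold with no filter on signal (adjusted p = 0.342), without the intensity trend (0.283), without diet in the model (0.118) or with probe sets averaged over every gene (0.0813). The difference was 0.49 under each of these settings, and over all genes 0, 0, 60 and 18 passed there in the same order, against 278.

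Of the genes that carry fatty acids across the membranes, Cpt2 read 2926, 3423 and 4000 at 4 h and 3746, 4813 and 4442 at 24 h in Control, HF and HF+SFC+ALA. Each diet was higher at 24 h, but the fasting groups overlap because the Control pool at 24 h lay below the HF+SFC+ALA pool at 4 h. The difference was 0.33 ± 0.08 and missed the threshold (adjusted p = 0.0680). With each pool left out in turn it ran from 0.25 to 0.42. Slc25a20 read 6698, 6905 and 7851 at 4 h and 8340, 8028 and 7826 at 24 h. Here the Control and HF pools were higher after fasting while the HF+SFC+ALA pools were level by this probe set, and the fit gave 0.18 ± 0.08 (adjusted p = 0.268). The second probe set of Slc25a20 gave 0.28 ± 0.07 (adjusted p = 0.0815) and was 0.17 higher at 24 h in HF+SFC+ALA. The probe set shared by Cpt1b, Chkb and Gm44502 read 6532, 6042 and 7155 at 4 h and 7554, 7957 and 7963 at 24 h, with every 24 h pool above every 4 h pool. Which of the 3 genes that signal belongs to cannot be told.

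Among the acyl-CoA dehydrogenases, Acadl read 18470, 22667 and 25701 at 4 h and 22540, 28846 and 25662 at 24 h in Control, HF and HF+SFC+ALA. Acadm read 18677, 20385 and 23422 at 4 h and 21749, 24184 and 24228 at 24 h. Acadvl read 9865, 10520 and 11746 at 4 h and 10709, 12966 and 11723 at 24 h. In all 3 genes the Control and HF pools were higher at 24 h, and the HF+SFC+ALA pools differed by 0.05 on the log2 scale or less. The fitted differences were 0.21 ± 0.08 for Acadl, 0.17 ± 0.07 for Acadm and 0.14 ± 0.07 for Acadvl, with adjusted p of 0.203, 0.221 and 0.368, so none passed. Without either HF pool that of Acadvl was 0.0578. The fasting groups overlapped for each of them.

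For the trifunctional protein, Hadha read 5803, 6482 and 7761 at 4 h and 6934, 8745 and 7997 at 24 h, a difference of 0.24 ± 0.08 (adjusted p = 0.159). Hadhb, by its brightest probe set, read 17559, 23798 and 23519 at 4 h and 18226, 21486 and 24745 at 24 h, a difference of -0.0068 ± 0.07 (adjusted p = 0.974). That probe set carries the suffix _x_at, which the manufacturer gives to sets with probes that may match other sequences. The second-brightest set, almost as bright, read 15283, 16345 and 20886 at 4 h and 17351, 23080 and 21213 at 24 h. It gave 0.23 ± 0.09 (adjusted p = 0.210), and its fasting difference in HF was 0.50 where the brightest set gave -0.15.

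Whether the subunit genes with overlapping windows differed or ran alike thus depended on the probe set of Hadhb. Across the 6 pools, Hadha and the second set of Hadhb correlated at r = 0.99, and Hadha and the brightest set at r = 0.55. Relative to Control at 4 h, Hadha and the second set were both 0.59 higher in the HF pool at 24 h, whereas the brightest set was 0.29 higher. The sets were compared after their values were seen, and what makes them differ was not tested. Decr1, which prepares polyunsaturated fatty acids, read 4756, 6315 and 7169 at 4 h and 5308, 8421 and 7093 at 24 h, a difference of 0.19 ± 0.09 (adjusted p = 0.297). Its fasting difference was 0.42 in HF, 0.16 in Control and -0.02 in HF+SFC+ALA, and without either HF pool the fitted difference was 0.0716.

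**Figure D2:**
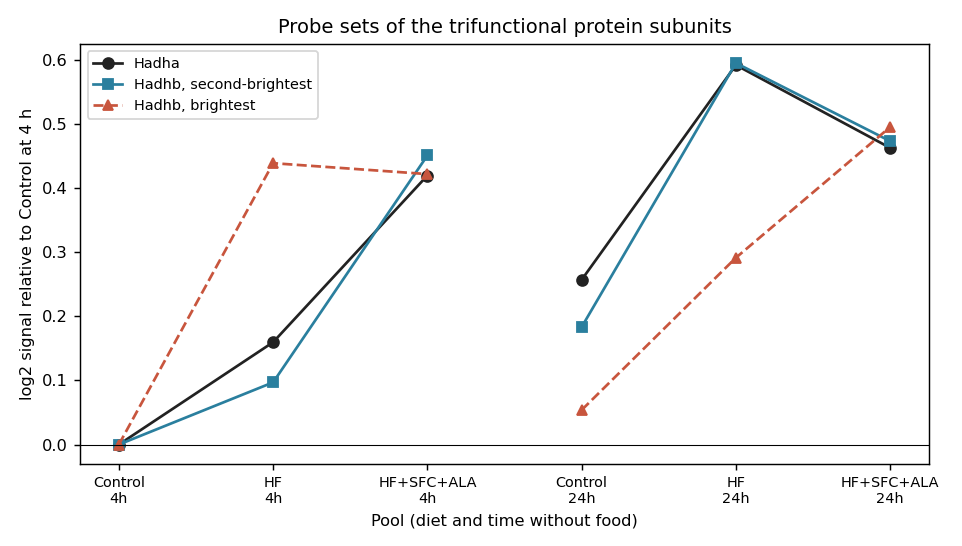
Log2 signal relative to the Control pool at 4 h (vertical axis) in the 6 pools (horizontal axis) for Hadha and for the brightest and second-brightest probe sets of Hadhb, with 1 pool per point. The second set of Hadhb lies close to Hadha, while the brightest set stands higher in HF at 4 h and lower in HF at 24 h.

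Over the 9 genes the median fasting difference was 0.19 (all genes 0.0083), and 8 of 9 were positive (51.7% of all genes). Within diets the fasting difference was positive for 9 of 9 for Control, 8 of 9 for HF and 5 of 9 for HF+SFC+ALA, with medians of 0.26, 0.35 and 0.04. The shares over all genes were 50.6%, 53.3% and 49.9%. The fasting difference was smallest in HF+SFC+ALA for 8 of 9 genes, all but Hadhb, where 33.3% of all genes had that order. With the second probe set of Hadhb the count was 9 of 9. With the second sets of Hadhb, Slc25a20 and Decr1 together it was also 9 of 9, and the fasting difference in HF+SFC+ALA was then positive for 7 of 9 instead of 5. Against HF alone it was 8 of 9 (51.8% of all genes), and 6 of 9 had a larger fasting difference in HF than in Control (51.3%). A higher signal at 24 h in all 3 diets was seen for 4 of 9 (21.0%), Cpt2, Acadm, Hadha and Mlycd. An interaction of diet and fasting time cannot be tested with 1 pool for each combination, so these differences between diets were not tested.

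**Figure D3:**
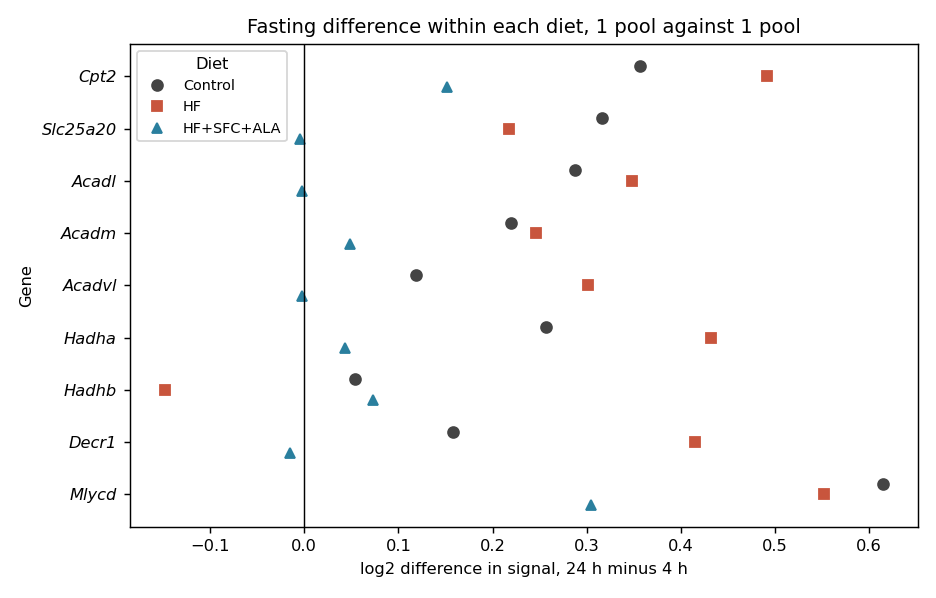
Log2 difference in signal between the 24 h and the 4 h pool of each diet (horizontal axis) for the 9 genes (vertical axis), each point being 1 pool against 1 pool, with no error to show. The HF+SFC+ALA points (triangles) lie near 0 except for Mlycd at 0.30 and Cpt2 at 0.15, to the left of the other diets in every gene but Hadhb.

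Genes of slow, oxidative fibres also had fasting differences that varied with the diet. Of 10 slow fibre genes all 10 were measured and 0 passed in any comparison by limma. At an unadjusted p under 0.05 there was 1 in each, where 5.08% to 17.7% of all genes were. Their median fasting differences were -0.17 for Control, 0.66 for HF and -0.52 for HF+SFC+ALA. Their summed signal was 75566 in HF at 4 h and 113334 in HF at 24 h, against 113125 and 82669 in HF+SFC+ALA and 102835 and 86415 in Control. Both lists were thus higher at 24 h in HF. In HF+SFC+ALA the slow fibre genes were lower at 24 h and the beta-oxidation genes were level, and in Control the slow fibre genes were lower and the beta-oxidation genes higher. The 12 fast fibre genes gave medians of 0.01, 0.21 and -0.12 and the 17 measured genes of the TCA cycle 0.04, 0.16 and -0.05. Their part in the values of the beta-oxidation genes was not tested.

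**Figure D4:**
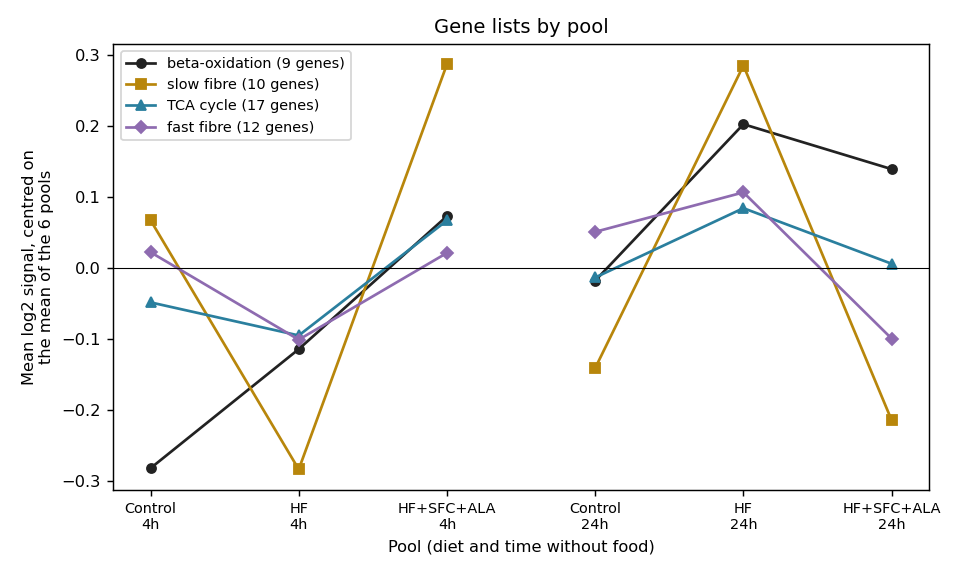
Mean log2 signal of 4 gene lists in the 6 pools (horizontal axis), centred for each gene on its mean over the pools (vertical axis), with 1 pool per point. The slow fibre genes swing from -0.28 in HF at 4 h to 0.29 in both HF+SFC+ALA at 4 h and HF at 24 h, and the beta-oxidation genes run from -0.28 in Control at 4 h to 0.20 in HF at 24 h.

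The next comparison asked what high-fat feeding did against the Control diet over both fasting times. None of the 9 genes passed, where 0.885% of all genes did. An unadjusted p under 0.05 was reached by 6 of the 9 (14.7% of all genes), 5 as higher (7.36% of all genes) and Mlycd as lower. Decr1 came nearest. Its HF pools read 6315 and 8421 at 4 h and 24 h against 4756 and 5308 in Control, and the difference was 0.54 ± 0.10 (1.45-fold, adjusted p = 0.0537). Its second probe set gave 0.58 ± 0.10 and passed (adjusted p = 0.0286). With the brightest set Decr1 passed when the Control pool at 4 h (adjusted p = 0.00200), the HF pool at 4 h (0.0114) or the Control pool at 24 h (0.0103) was left out. In those fits 592, 275 and 279 of all genes passed, against 102. It also passed under a filter at the 65th percentile (0.0406).

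Hadhb (0.34 ± 0.08), Acadl (0.33 ± 0.10), Cpt2 (0.29 ± 0.10), Hadha (0.25 ± 0.10), Acadvl (0.18 ± 0.09) and Acadm (0.14 ± 0.08) were also higher in HF without passing (adjusted p from 0.118 to 0.462). The second set of Hadhb gave 0.25 ± 0.11 (adjusted p = 0.324). With probe sets averaged Hadhb was at 0.0131. Without the HF pool at 24 h Hadha was at 0.11, Acadvl at 0.0625, Acadm at 0.0835 and Cpt2 at 0.18. Slc25a20 stood at -0.0056 ± 0.09 (adjusted p = 0.985), and its second probe set at 0.20 ± 0.09 (0.329). Mlycd was lower in HF, at -0.31 ± 0.10 (adjusted p = 0.184), with differences of -0.28 at 4 h and -0.34 at 24 h, and it passed without the Control pool at 4 h (adjusted p = 0.0493), where 592 of all genes did. Counted by pool, 8 of 9 genes were higher at 4 h (48.2% of all genes) and 7 of 9 at 24 h (50.6%), with 7 of 9 above Control at both fasting times (29.4%), or 8 of 9 with the second sets of Hadhb, Slc25a20 and Decr1. The median over the 9 genes was 0.16 at 4 h and 0.28 at 24 h, and 0.25 in the fit (all genes -0.00020), or 0.11 without the HF pool at 24 h.

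Several markers of other cells were also higher in HF. Of the adipocyte list, 10 of 12 were measured and 3 rose (Adipoq, Lep and Cidec), where 0.564% of all genes passed as higher. The summed signal of the list was 29256 to 36806 for Control, 38582 to 44816 for HF and 35436 to 37110 for HF+SFC+ALA. Most of that sum is Fabp4 (21626 in Control at 4 h). Of the 10, 7 were positive, and Pnpla2 (-0.31, adjusted p = 0.223), Pparg (-0.16) and Lipe (-0.13) were negative. Adipoq, which defines adipocytes, read 901 and 577 at 4 h and 24 h on the Control diet, 4637 and 4280 on HF, and 1941 and 796 on HF+SFC+ALA. The 9 measured macrophage markers had a median of 0.57 and the 8 fibroblast markers 0.56, with 0 and 3 passing. The 4 brown adipocyte genes above the filter were all positive, with a median of 0.44 and 0 passing. The summed macrophage signal was 2910 to 3205 for Control, 4310 to 5065 for HF and 3734 to 4762 for HF+SFC+ALA. No marker of these lists is one of the beta-oxidation genes, and the part of these cells in the values was not tested.

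HF+SFC+ALA was compared with HF to see what the iron salt and heme precursor did on top of the high-fat diet. None of the 9 genes passed, nor did any of the 11526 genes (0.0%), and at an unadjusted p under 0.05 there were 0 of the 9 and 5.08% of all (2.2% as higher). Fitted differences were positive for 8 of 9 genes (48.7% of all). The fitted differences lay between -0.03 (Decr1) and 0.19 (Mlycd), with adjusted p from 0.970 to 0.998. Their 95% intervals together ran from -0.27 to 0.41, so changes of up to these sizes over both fasting times are not excluded by the fit. The comparison shares the HF pools with the one before.

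The small averages joined opposite differences at the fasting times. At 4 h, 8 of the 9 genes were higher in HF+SFC+ALA (50.2% of all genes), with a median of 0.19, and 8 of 9 had HF+SFC+ALA as the highest 4 h pool (31.1%). The differences were led by Mlycd (0.31), Hadha (0.26) and Cpt2 (0.22). At 24 h only 3 of 9 were higher (47.2% of all genes), with a median of -0.12. Higher at 4 h and lower at 24 h were 6 of the 9 (26.1% of all genes), among them Decr1 at 0.18 and -0.25 and Acadl at 0.18 and -0.17. This is the same observation as the unequal fasting differences of these diets, since it rests on the same 4 pools. Slow fibre genes had the same signs, with medians of 0.68 at 4 h and -0.47 at 24 h. So did the skeletal muscle markers, with 10 of 10 higher at 4 h and 0 of 10 at 24 h (medians of 0.125 and -0.19). Fast fibre genes were higher in 11 of 12 at 4 h and in 0 of 12 at 24 h. For TCA cycle genes the counts were 17 of 17 and 3 of 17. Other genes of mitochondrial beta-oxidation were higher in 17 of 22 at 4 h and in 6 of 22 at 24 h. For peroxisomal genes the counts were 12 of 13 and 6 of 13, and for macrophage markers 7 of 9 and 0 of 9. Other PPAR-responsive genes had medians of 0.37 and 0.0075, and regulators of beta-oxidation 0.04 and 0.08, positive at both times. The HF pool at 4 h is also the pool with the actin ratio of 1.52. The adipocyte list had a median of -0.71 in the fit, with 2 of 10 positive. The part of these in the result was not tested.

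Set against Control, HF+SFC+ALA was higher for all 9 genes at 4 h (48.8% of all genes) and for 7 of 9 at 24 h (48.4%), with medians of 0.42 and 0.19. None of the 9 passed, where 0.0347% of all genes did. At an unadjusted p under 0.05, 6 of 9 were higher (5.92% of all genes, and 12.4% in either direction), and 8 of 9 differences were positive (48.3%). Decr1 stood at 0.51 ± 0.10 (adjusted p = 0.158), Hadhb at 0.43 ± 0.08 (0.133), Cpt2 at 0.35 ± 0.10 (0.243) and Acadl at 0.33 ± 0.10 (0.251). Mlycd stood at -0.12 ± 0.10 (0.642) and Slc25a20 at 0.07 ± 0.09 (0.801). With each pool left out in turn, the difference ran from 0.35 to 0.66 for Decr1 and from 0.37 to 0.49 for Hadhb. Leaving out either HF pool gives the same difference here, so those fits are not separate checks. Slow fibre genes had medians of 0.18 at 4 h (7 of 10 positive, from -0.03 to 0.66) and 0.0091 at 24 h (5 of 10 positive, from -0.43 to 0.17). In the fit, 9 of 9 macrophage markers were positive with a median of 0.52, and 8 of 8 fibroblast markers with a median of 0.29. The 4 brown adipocyte genes above the filter were also all positive, with a median of 0.41. The part of these in the result was not tested. The second probe set of Hadhb gave 0.37 ± 0.11 (adjusted p = 0.254 by limma). For 3 of the 9 genes (Acadl, Hadhb and Decr1) all 4 high-fat pools were above both Control pools, a pattern of 10.4% of all genes. For Hadhb it did not hold by the second set, at 16345 in HF at 4 h and 17351 in Control at 24 h. For Acadl these pools were close, at 22667 and 22540. The Control pools are shared with the comparison of HF against Control.

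**Figure D5:**
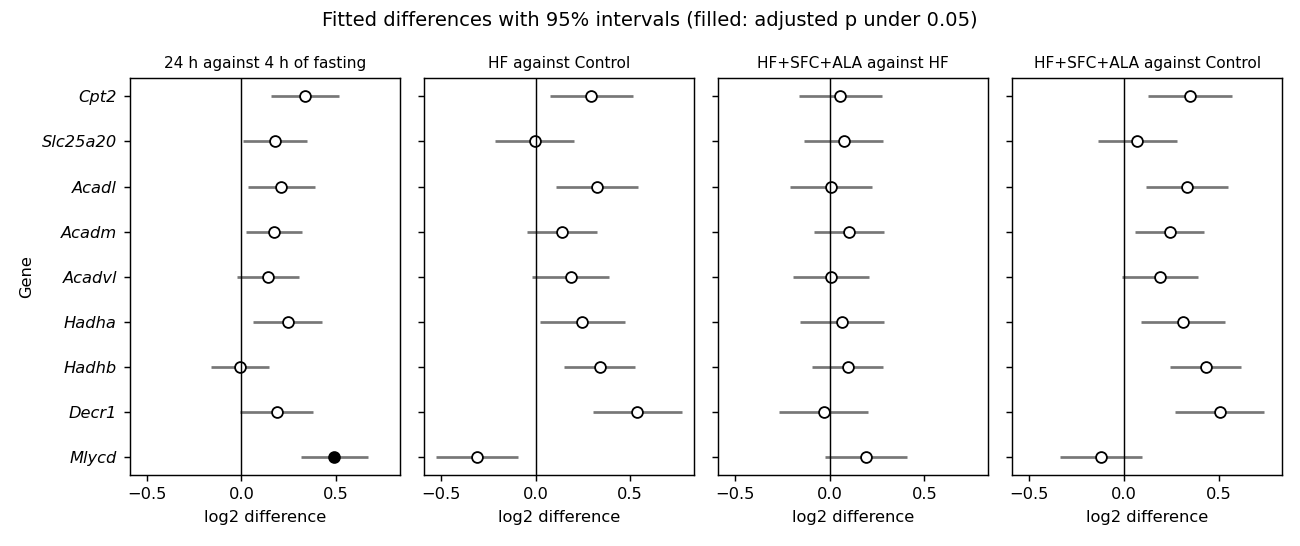
Fitted log2 differences (horizontal axis) with 95% intervals for the 9 genes (vertical axis) in the 4 comparisons, from the additive limma model on 6 pools, where filled points mark an adjusted p under 0.05. Only Mlycd is filled, at 0.49 for fasting, and all intervals of HF+SFC+ALA against HF span 0.

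The rest of the pathway was read from lists of its other genes. Of 23 other genes of mitochondrial beta-oxidation 22 were measured, and none passed in any comparison by limma. At an unadjusted p under 0.05 there were 8 for fasting (17.7% of all genes) and 6 for HF against Control (14.7%). There were 0 for HF+SFC+ALA against HF (5.08%) and 5 against Control (12.4%). For fasting 17 of 22 were positive (51.7% of all genes) with a median of 0.16. The ends of the range were Eci2, an enoyl-CoA isomerase (0.29 ± 0.07, adjusted p = 0.0653), and Acsl3, an acyl-CoA synthetase (-0.44 ± 0.11, adjusted p = 0.0731). Etfdh, which passes electrons from the dehydrogenases to ubiquinone, stood at 0.26 ± 0.07 (adjusted p = 0.10). For HF against Control the median was 0.07. Acaa2, the thiolase of the cycle, stood at 0.41 ± 0.11 (adjusted p = 0.152), and the acetyl-CoA carboxylases Acacb and Acaca, which make malonyl-CoA, at -0.30 ± 0.09 (adjusted p = 0.170) and -0.40 ± 0.17 (adjusted p = 0.334). The medians were 0.05 for HF+SFC+ALA against HF and 0.12 against Control. For HF+SFC+ALA against HF the differences ran from -0.20 (Acad10) to 0.17 (Eci1), and against Control from -0.32 (Acaca) to 0.51 (Acaa2).

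Of 16 genes of peroxisomal beta-oxidation 13 were measured, and 1 rose with fasting, Ehhadh, the peroxisomal bifunctional enzyme (0.63 ± 0.13, adjusted p = 0.0485). Its fasting differences of 0.43, 0.53 and 0.91, for Control, HF and the supplemented diet in turn, were greatest in the supplemented diet, where the whole peroxisomal list had its lowest median. That list had median fasting differences of 0.03 on the Control diet, 0.28 on HF and -0.03 on HF+SFC+ALA. They were 0.07, 0.32 and 0.02 for the other mitochondrial genes and 0.37, 0.51 and 0.15 for the other PPAR-responsive genes. The order of the medians was thus that of the 9 genes in all 3 lists, but it was not particular to them. In the same diets the medians over all genes were 0.0040, 0.023 and -0.0010. Those of the skeletal muscle markers were 0.03, 0.21 and -0.12, and the fast fibre, slow fibre and TCA cycle genes also had that order. The macrophage (-0.06, 0.28 and -0.41) and endothelial markers (0.13, 0.18 and 0.03) had it too. The transcriptional regulators (-0.36, -0.195 and -0.25) and the adipocyte, brown adipocyte and fibroblast lists did not. The differences between diets were not tested. Of 12 measured other PPAR-responsive muscle genes 5 rose with fasting: the acyl-CoA thioesterases Acot1 (1.45) and Acot2 (1.11), Angptl4, an inhibitor of lipoprotein lipase (0.66), Cd36 (0.39) and Txnip (0.31). Acot2 fell in HF (-0.59 ± 0.10, adjusted p = 0.0305). Of 15 measured regulators, 2 fell with fasting, the coactivator Ppargc1a (-1.0 ± 0.17, adjusted p = 0.0212) and the retinoid receptor Rxrg (-0.59 ± 0.08, adjusted p = 0.00978). Lpin1, a coactivator and phosphatidate phosphatase, fell in HF (-0.44 ± 0.08, adjusted p = 0.0347). Among all genes, 2.41% passed for fasting (1.49% as higher) and 0.885% for HF against Control. Over all 15, the regulators' median for fasting was -0.23, with 2 of 15 positive (51.7% of all genes), while that of the beta-oxidation genes was 0.19. Of 17 measured TCA cycle genes none passed in any comparison by limma, and their medians were 0.02 to 0.03. At an unadjusted p under 0.05 there were 1, 1, 1 and 4, with 4 for HF+SFC+ALA against Control. The shares over all genes were 17.7%, 14.7%, 5.08% and 12.4% in the same order.

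The genes most like the mean of the 9 over the 6 pools, by Pearson's r of log2 signal among all genes above the filter, were Cd36 (0.999), Grrp1 (0.991), Acads (0.990), Pmm1 (0.988), Etfdh (0.986) and Tspan4 (0.986). Cd36, the fatty acid transporter of the cell surface, read 8640, 10439 and 12873 at 4 h and 11916, 15348 and 14298 at 24 h in Control, HF and HF+SFC+ALA. Its order of pools was that of Cpt2, lowest in Control at 4 h and highest in HF at 24 h. Acads is the short-chain acyl-CoA dehydrogenase, so 2 of the 6, Acads and Etfdh, belong to the other beta-oxidation genes. With 6 pools and 11517 genes searched, high values of r are easily met, and they describe likeness on these arrays only.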

How the data were processed

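RNA from 6 pools was measured on 3' expression arrays, as described above. Per the submitters' processing notes, the authors used MAS5, and the deposited unit is intensity (linear). Its version and settings were not stated in what was used here. A trimmed mean without the lowest and highest 2% was 500.004 on every array, so the arrays had been scaled. No detection calls were used, the number of arrays limits the precision, and 64 control probe sets of 45101 were left out. Among the other 45037, the platform annotation gave 1 symbol for 34945, several for 932 and none for 9160. Of these symbols 34741 were brought up to date by gene identifier. The brightest probe set stood for each of 18193 genes. The 11526 genes whose mean log2 signal, before any floor, was above 5.88 (the median probe set) were kept. For the fit, signals below the 30th percentile (26.4) were set to it and log2 was taken.

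With limma 3.58.1 (R 4.3.3), diet and fasting time were fitted as additive terms (lmFit, eBayes with intensity trend, 2 residual and 7.27 prior degrees of freedom). P-values were adjusted by Benjamini-Hochberg over all genes, with a threshold of 0.05. Nothing says that the pools are separate cohorts, and p-values measure only the spread that the additive terms leave between these pools. The fit was also run on simulated data with independent errors and with larger changes than those of the members. In these pools the error is the interaction of diet and fasting time, so that run cannot speak for their p-values. The members, lists, model and alternatives were chosen with earlier results of these data known. The rule for named genes took all members, the genes of the pathway lists that passed or had the 2 highest or lowest differences (some given as counts only), and the 6 genes most like the members. Alternatives were quantile normalization, other filters, floors and probe sets, no trend, no second factor and each pool left out. Figures were drawn with matplotlib 3.10.9 in Python 3.11.15.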

Additional observations from a re-analysis of the deposited data

Results flagged for a closer look

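The difference between HF+SFC+ALA and HF pointed up at 4 h and down at 24 h, by more than 0.1 on the log2 scale each way, for 5 genes and for the median of the 9 members. With 1 pool for each combination, the difference between the fasting times was not tested. The gap between the 4 h and the 24 h difference was 0.34 for Cpt2, 0.35 for Acadl, 0.30 for Acadvl, 0.39 for Hadha and 0.43 for Decr1, and 0.30 for the median of the 9 members. The same 4 pools enter each of these gaps. Medians of the skeletal muscle, slow fibre, fast fibre and TCA cycle lists also pointed up at 4 h and down at 24 h. So did those of the other mitochondrial and peroxisomal beta-oxidation, brown adipocyte, macrophage and endothelial lists. Medians of the regulators and other PPAR-responsive genes were positive at both times, and those of the adipocyte and fibroblast lists negative at both. No group had the 4 or more samples needed to look for a sample far from the others.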

How the results depend on the processing

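The number of members that passed for fasting was 1 and became 0 with no filter on signal, with probe sets averaged, without the intensity trend and without diet in the model, and 2 (Cpt2 and Mlycd) under a filter at the 65th percentile. For HF against Control it was 0 and became 1 (Decr1) under the same stricter filter and with the second-brightest probe sets, an alternative added after seeing the data. Leaving out each pool in turn gave 1 to 2 members for fasting, 0 to 2 when HF or HF+SFC+ALA was set against Control, and 0 between the high-fat diets. Over all genes the number passing ran from 59 to 455 for fasting, 47 to 592 for HF and 0 to 435 for HF+SFC+ALA against Control. The prior degrees of freedom ran from 7.52 to 2278. With 1 residual degree of freedom, a lone pool is then assumed to vary like the others. For fasting, leaving out either pool of a diet gives the same difference, so these fits are not separate checks. The same holds between 2 diets when a pool of the remaining diet is left out. The median of the members ran from 0.14 to 0.29 for fasting, 0.11 to 0.31 for HF and 0.16 to 0.37 for HF+SFC+ALA against Control, and -0.08 to 0.19 between the high-fat diets. Directions turned only in differences that had not passed. For fasting Hadhb was 0.28 with probe sets averaged and 0.23 with the second set, and Cpt2 was -0.16 with its second, dim set. For HF against Control Slc25a20 was 0.0119 with quantile normalization, 0.0969 with probe sets averaged and 0.20 with the second set. For HF+SFC+ALA against HF Cpt2 was -0.28 averaged and -0.60 with the second set, and Decr1 was 0.0142 and 0.0606. Leaving out 1 pool turned Hadhb for fasting (-0.0469 to 0.0635) and Slc25a20 for HF against Control (-0.11 to 0.0993). Against Control it turned Slc25a20 (-0.067 to 0.20) and Mlycd (-0.26 to 0.0175) for HF+SFC+ALA. For HF+SFC+ALA against HF it turned Cpt2 (-0.0819 to 0.19), Slc25a20 (-0.0614 to 0.21), Acadl (-0.15 to 0.17), Acadvl (-0.12 to 0.13), Hadha (-0.0852 to 0.22), Hadhb (-0.0121 to 0.20) and Decr1 (-0.20 to 0.14). Beyond the changes of probe set, the cause was not tested. No paired analysis was possible because each combination of diet and fasting time had 1 pool. The other factor served as the block instead.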
